A study of Mus musculus with 37 samples.

Results

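The comparison described here set hearts collected 1 day after adrenaline alone against hearts collected 7 days after it, within the Adr arm of a mouse study of cardiac arrest. It held 8 of the 37 libraries, 4 at 1 day and 4 at 7 days, and 13238 of the 56748 genes in the deposited expression table, those with at least 0.5 FPKM (fragments per kilobase of gene, scaled to the depth of the library) in at least 4 of these 8 libraries. No measured difference was used to choose the libraries or the genes. Both groups, which the labels call sham 1d and sham 7d, were C57BL/6J mice of both sexes aged 8 to 10 weeks that were anesthetized with isoflurane, intubated and ventilated. Each mouse received 40 µL of saline in the left ventricle and, 8 min later, 500 µL of adrenaline at 15 µg/mL by the same route, with no arrest and no chest compressions. The saline, the anesthesia and the adrenaline were therefore common to both groups, and only the time to collection differed by design. RNA was taken from left ventricle with the apex discarded. The Arrest arm, which received KCl in place of saline, then adrenaline and chest compressions, is used below where its own 1 day and 7 day libraries were set beside those of the Adr arm, and the untreated Naive libraries enter no comparison. Both enter some alternative fits below, where they add only to the estimate of spread. The labels name separate samples and do not tie them to litters or days, so every p-value below measures the spread between these libraries.

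Adrenaline binds beta-adrenergic receptors on cardiomyocytes, which raise cAMP through adenylyl cyclase, and alpha1-adrenergic receptors on cardiomyocytes and vessels. cAMP activates protein kinase A, which increases calcium cycling within minutes and drives immediate early genes such as the Nr4a nuclear receptors through the factor CREB. A catecholamine surge is also known for inflammation of the heart muscle, for changes in fuel use, and for resetting of clock genes, while injury and anesthesia can raise glucocorticoids and acute phase signals of their own.

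The libraries held 13.6 to 25.9 M fragments counted over genes at 1 day and 13.7 to 15.4 M at 7 days. At 1 day replicate 4 stood above the others, with 25.9 M fragments and 21356 genes above 0 against 16623 to 17373 in the other 3 libraries. Transcripts of the mitochondrial genome took 21.6% to 25.7% of fragments at 1 day and 20.8% to 26.3% at 7 days. The tissue label was met by its defining markers, since the 20 ventricular cardiomyocyte genes summed to 18619 to 22264 FPKM at 1 day and 16849 to 20103 FPKM at 7 days. The other groups of marker genes lay far lower. The 9 atrial genes tested summed to 49.7 to 742 FPKM at 1 day and 51.8 to 227 FPKM at 7 days, the 7 haemoglobin and red cell genes to 1646 to 2729 and 1696 to 3289 FPKM, and the 7 T, B and NK cell genes that passed the filter, of 27 listed, to 9.53 to 26.7 and 14.5 to 27.7 FPKM. Ly6g, Cd3e, Myh4 and Alb, which define neutrophils, T cells, fast skeletal muscle and liver, were at or near 0 in all 8 libraries. In bulk tissue, fewer cells of a type and less RNA per cell cannot be told apart.

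No gene differed between 1 day and 7 days at an adjusted p of at most 0.05 in limma's moderated test on log2(FPKM + 1), which is 0% of the 13238 genes. With no adjustment of p and the same threshold, 1706 genes were counted, 12.9% of those tested, where 662 would be counted without any difference. Of these, 808 (6.1%) were higher at 7 days and 898 (6.78%) were lower. The lowest of 4 values in one group lay above the highest of 4 in the other for 1018 genes (7.69%), 519 of them (3.92%) higher and 499 (3.77%) lower at 7 days. The smallest adjusted p was 0.0824, shared by Nr4a3 and Gtf2a2, so single genes below are given as values. A second tool, limma voom on fragment counts recovered from the FPKM values, called 17 genes, 7 higher and 10 lower at 7 days, among them Nr4a3, Irs2, Serpina3n, Mt1, Csrp3 and Uqcr10. When all 37 libraries of the series shared the estimate of spread, 12 genes were called for the same 8 libraries, 2 higher and 10 lower. When the 16 libraries of both arms at 1 day and 7 days shared it, an alternative chosen after seeing the data, 108 genes (0.816%) were called, 40 higher and 68 lower, and 2044 (15.4%) passed without adjustment.

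Read across all genes together, the groups lay apart. The first principal component of the 8 libraries, with 21.4% of the variance, placed the 1 day libraries at -22.4, -36, -73.3 and -58.3 and the 7 day libraries at 34.7, 46.4, 55.9 and 53. The 7 day libraries were also closer to each other on the second component (18.7% of the variance), from -33.5 to 39.5, than the 1 day libraries, from -61.2 to 87.2. The median difference over all genes was -0.0053 on the log2 scale. One library property separated the groups as well. In each library, the log2(FPKM + 1) of each gene, less its mean over the 8 libraries, was correlated by rank with gene length. This correlation was -0.176, 0.005, -0.084 and -0.165 in the 1 day libraries and 0.023, 0.068, 0.186 and 0.118 in the 7 day libraries. Its mean differed by 0.204, with a two-sided exact permutation p of 0.0286, the smallest that 4 against 4 allows, and 0.114 after adjustment over the 4 library measures compared. Because each gene was centred on the 8 libraries, the signs are relative between libraries and do not describe FPKM itself. The same property read by gene, not a second result, was a rank correlation of 0.202 between the difference and gene length. It was taken across 11495 genes of at least 1 FPKM, which are not independent replicates. Long genes were thus on average higher and short genes lower at 7 days. The part of this property in single results was not tested beyond the refit with the length trend removed, whose values are given beside the groups of short or long genes below.

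**Figure D1:**
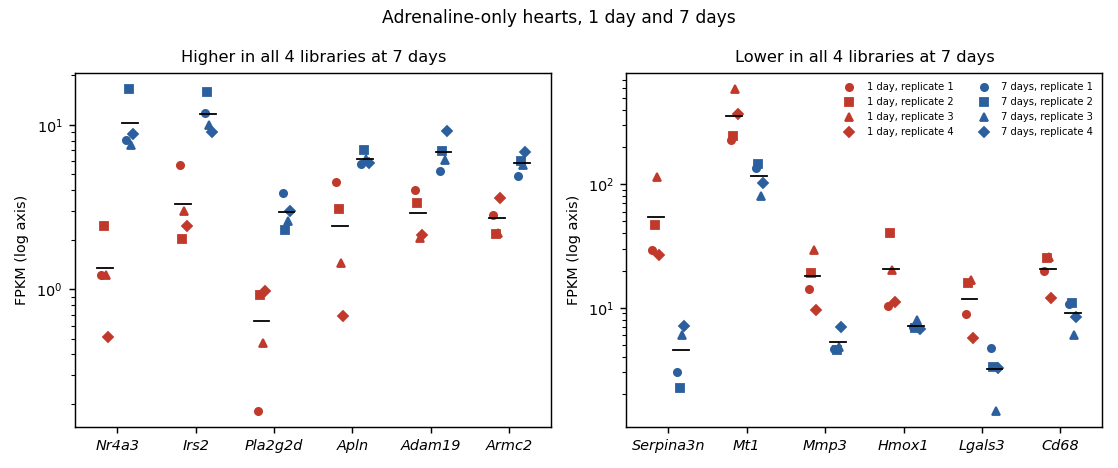
FPKM on a log axis of 12 genes named by size of difference in the 4 libraries at 1 day (red) and the 4 at 7 days (blue); marker shapes are replicates and black lines are group means. The genes were picked for groups that do not overlap, so the 4 values at 7 days lie on one side of the 4 values at 1 day by choice. The largest mean differences are those of Serpina3n and Nr4a3.

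Among genes higher at 7 days, the largest difference was in Nr4a3, an immediate early nuclear receptor that cAMP induces. Nr4a3 measured 1.23, 2.42, 1.21 and 0.512 FPKM in the 4 libraries at 1 day and 8.05, 16.5, 7.5 and 8.84 FPKM at 7 days. All 4 libraries at 7 days were above all 4 at 1 day, and replicate 2 was the highest at both times. Genes named by size, here and below, had to have groups that do not overlap, so that trait is no finding. The difference was 2.26 ± 0.28 (SE) on the log2 scale, with an adjusted p of 0.0824 (limma). Its relative Nr4a1 measured 48.5, 3.72, 5.76 and 2.83 FPKM at 1 day and 31.2, 52.2, 26.9 and 29.9 FPKM at 7 days. Replicate 1 at 1 day was as high as the 7 day libraries, so the groups overlapped, while the other 3 libraries at 1 day lay at 5.76 FPKM or below. The difference was 1.98 ± 0.68 (SE) on the log2 scale, with an adjusted p of 0.271 (limma). Without that replicate the difference was 2.81, given with no p because the library was singled out for values such as this one.

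Both genes carry repeats of TGACG, the core of the cAMP response element, in the 250 bases before their start in the RefSeq promoter table (GRCm38.p6), and these sequences are shown because the Nr4a pair had the largest mean differences among the immediate early genes. Capitals mark each TGACG on either strand (CGTCA on the reverse), 4 in Nr4a3 (chr4:48045055-48045304, plus strand) and 4 in Nr4a1 (chr15:101266596-101266845, plus strand).
Nr4a3: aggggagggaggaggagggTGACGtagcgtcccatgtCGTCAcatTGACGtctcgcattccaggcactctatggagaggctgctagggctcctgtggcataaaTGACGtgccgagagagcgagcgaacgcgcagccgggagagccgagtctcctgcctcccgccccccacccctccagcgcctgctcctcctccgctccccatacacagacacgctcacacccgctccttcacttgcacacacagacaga
Nr4a1: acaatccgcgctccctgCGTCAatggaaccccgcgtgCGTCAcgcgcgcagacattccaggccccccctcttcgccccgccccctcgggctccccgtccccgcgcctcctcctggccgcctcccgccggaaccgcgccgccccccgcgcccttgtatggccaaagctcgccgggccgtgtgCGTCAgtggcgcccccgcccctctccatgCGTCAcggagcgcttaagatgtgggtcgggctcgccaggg
Of 32851 promoters of this length in the table, 17.8% held at least 1 TGACG and 0.137% held 4 or more. None of the copies in either stretch was part of a full TGACGTCA, which 1.55% of promoters held. The matches describe letters only and were not tested as sites.

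The other 11 genes that the size rule named as higher at 7 days came from several functions. Irs2, the insulin receptor substrate, measured 5.73, 2.02, 2.98 and 2.42 FPKM at 1 day and 11.8, 15.9, 10 and 9 FPKM at 7 days, with a difference of 1.61 ± 0.26 (adjusted p = 0.102). Apln encodes apelin, the peptide ligand of the endothelial receptor Aplnr. Apln measured 4.47, 3.08, 1.44 and 0.69 FPKM in the 4 libraries at 1 day and 5.81, 7.02, 6.16 and 5.84 FPKM at 7 days. Replicates 3 and 4 at 1 day were the lowest, and the 7 day libraries lay close together with an SD of 0.562 FPKM. Pla2g2d, a secreted phospholipase, averaged 0.635 ± 0.377 FPKM at 1 day and 2.93 ± 0.673 FPKM at 7 days, and Adam19, a membrane metalloprotease, averaged 2.89 ± 0.968 FPKM at 1 day and 6.87 ± 1.67 FPKM at 7 days. Scn4b, a beta subunit of the cardiac sodium channel, averaged 3.3 ± 0.278 FPKM at 1 day and 7.61 ± 2.74 FPKM at 7 days. Nedd9, a focal adhesion scaffold, Chaer1, a cardiac long noncoding RNA, Trp53i11, Lingo3, Nkain4 and Armc2 completed the set, with differences of 0.96, 1.26, 1.01, 1.14, 0.97 and 0.90. Adjusted p-values of the 12 genes ran from 0.0824 to 0.221 (limma).

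Among genes lower at 7 days, the largest difference was in Serpina3n, an acute phase inhibitor of serine proteases. Serpina3n measured 29.6, 46.6, 114 and 26.8 FPKM in the 4 libraries at 1 day and 3.04, 2.25, 5.97 and 7.05 FPKM at 7 days. Replicate 3 at 1 day was the highest, and the groups did not overlap, as the size rule required. The difference was -3.16 ± 0.45 (SE) on the log2 scale, with an adjusted p of 0.102 (limma). Mt1, a metallothionein that binds zinc and copper and responds to glucocorticoids and metals, measured 229, 247, 589 and 374 FPKM at 1 day and 135, 146, 80.9 and 102 FPKM at 7 days. The difference was -1.56 ± 0.30 (SE) on the log2 scale, with an adjusted p of 0.115 (limma). The 12 tested genes of the metallothioneins and zinc list had a median of -0.02, with 6 positive and 6 negative. Of these, 1, Mt1 itself, was lower and 0 higher at an unadjusted p of at most 0.05 (limma), beside 6.78% and 6.1% of all genes. Mmp3, which degrades matrix, measured 14.1, 19.1, 29.2 and 9.56 FPKM at 1 day and 4.63, 4.54, 4.77 and 6.98 FPKM at 7 days, with no overlap and a difference of -1.52 ± 0.28 (adjusted p = 0.115). Hmox1, the haem-degrading enzyme of the NRF2 response, measured 10.3, 40.6, 20.2 and 11.2 FPKM at 1 day and 7.02, 6.8, 7.97 and 6.72 FPKM at 7 days. Replicates 2 and 3 carried most of the 1 day level, while the 4 libraries at 7 days had an SD of 0.577 FPKM. The difference was -1.20 ± 0.35 (SE) on the log2 scale, with an adjusted p of 0.212 (limma).

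The stretch before the start of Mt1 (chr8:94178839-94179088, plus strand, RefSeq, GRCm38.p6) is shown because Mt1 had the highest level of the genes named by size. Capitals mark TGCACNC, one form of the metal response element, searched on both strands and held by 10.4% of all promoters.
Mt1: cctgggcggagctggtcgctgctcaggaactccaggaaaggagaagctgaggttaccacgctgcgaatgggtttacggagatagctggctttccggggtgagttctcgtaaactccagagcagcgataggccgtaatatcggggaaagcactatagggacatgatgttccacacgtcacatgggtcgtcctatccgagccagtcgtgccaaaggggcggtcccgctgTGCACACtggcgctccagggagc
It held 1 copy, from 23 to 17 bases before the start, which describes the letters and was not tested as a site.

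Lgals3, the lectin galectin-3 of activated macrophages, measured 8.93, 16, 16.6 and 5.64 FPKM at 1 day and 4.74, 3.29, 1.46 and 3.27 FPKM at 7 days. Cd68, a lysosomal protein of macrophages, measured 19.9, 25.4, 25.8 and 12 FPKM at 1 day and 10.8, 10.9, 5.98 and 8.37 FPKM at 7 days. In both genes replicates 2 and 3 were highest at 1 day, replicate 3 was lowest at 7 days, and the groups did not overlap. The differences were -1.56 for Lgals3 and -1.098 for Cd68. Malat1, an abundant nuclear noncoding RNA, averaged 106 ± 42.4 FPKM at 1 day and 45.6 ± 12 FPKM at 7 days. Mir133a-2, the precursor locus of a muscle microRNA, averaged 16.1 ± 3.89 FPKM at 1 day and 5.05 ± 3.46 FPKM at 7 days and was listed at 0 in replicate 3 at 7 days. This locus is only 104 bases long, so its FPKM values rest on few fragments and are uncertain. Fstl3, which binds activins, Zfp52, a zinc finger gene, Fam89a and Trnp1 were the remaining 4, with differences of -1.27, -1.21, -1.13 and -1.11. Adjusted p-values of these 12 genes ran from 0.102 to 0.245. Gtf2a2, a subunit of the general transcription factor TFIIA, lay outside the size rule and was singled out after its values were seen for its p. Gtf2a2 measured 15.7, 15, 16.3 and 16.7 FPKM in the 4 libraries at 1 day and 7.37, 7.71, 8.67 and 8.79 FPKM at 7 days. The difference was -0.89 ± 0.11 (SE) on the log2 scale, with an adjusted p of 0.0824 (limma).

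In the gene lists below, members counted as higher or lower are those with an unadjusted p at or under 0.05, and none passed with adjustment in the fit of the 8 libraries. By the same measure 6.1% of all 13238 genes were higher and 6.78% lower. With 1 library left out, 606 to 864 of all genes were higher and 687 to 964 lower. Every list count below is to be read beside these shares. The acute phase, macrophage and antioxidant lists had more members lower than higher at 7 days. Of 22 tested members of the acute phase and IL-6 STAT3 list, 19 had a negative difference, and 6 were lower and 1 higher at an unadjusted p of at most 0.05, with a list median of -0.23 beside -0.0053 over all genes and with 6.78% and 6.1% of all genes so counted. Timp1, an inhibitor of metalloproteases, measured 22.7, 26, 33.6 and 6.29 FPKM at 1 day and 8.09, 3.3, 4.03 and 6.03 FPKM at 7 days. Only replicate 4 at 1 day reached down into the range of the 7 day libraries. Lcn2, lipocalin-2 of the acute phase and of neutrophils, measured 3.97, 3.45, 28 and 9.52 FPKM at 1 day and 3.7, 2.23, 1.86 and 2.4 FPKM at 7 days, with replicates 3 and 4 at 1 day above every other library and the remaining values mixed between the groups. Socs3, the feedback inhibitor of IL-6 signalling, averaged 3.6 ± 1.9 FPKM at 1 day and 2.3 ± 0.902 FPKM at 7 days and overlapped. Leaving out 1 library at a time, the number of list members lower at 7 days ran from 2 to 6, with 2 without replicate 3 at 7 days and 3 without replicate 2 at either time. Of 32 genes of the NRF2 antioxidant response, 7 were lower, Hmox1 among them, and 1 was higher, with a median of -0.22, and 4 to 10 were lower with any 1 library left out, with 4 without replicate 3 at either time.

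Of 23 monocyte and inflammatory macrophage genes, 4 (Lgals3, Cd68, Itgam and Spp1) were lower and 0 higher, beside 6.78% and 6.1% of all genes. The median was -0.30. With any 1 library left out 3 to 9 were lower, with 9 without replicate 4 at 1 day and 7 without replicate 1 at 7 days. Spp1 also belongs to the acute phase list. Itgam (CD11b) measured 1.07, 2.44, 1.06 and 0.772 FPKM at 1 day and 0.18, 0.0243, 0.456 and 0.369 FPKM at 7 days, without overlap, and passed the filter only through its 1 day libraries, so its count as lower is no support. Spp1, osteopontin, measured 7.76, 21.5, 2.18 and 1.6 FPKM at 1 day and 2.71, 0, 0.13 and 2.25 FPKM at 7 days. Replicate 2 at 1 day held most of the Spp1 level and the groups overlapped. Outside the list's 4, Ccr1, a chemokine receptor, averaged 3.1 ± 2.51 FPKM at 1 day and 0.928 ± 0.344 FPKM at 7 days without overlap, and Ccl2, which recruits monocytes, averaged 12 ± 8.04 FPKM at 1 day and 3.91 ± 2.8 FPKM at 7 days with overlap. The summed level of the 23 genes ran from 377 to 786 FPKM at 1 day and from 414 to 799 FPKM at 7 days, so the list as a whole overlapped. Of the 7 neutrophil genes tested, of 22 listed, 1 was lower, and the 7 summed to 14.6 to 33.3 FPKM at 1 day and 5.81 to 14 FPKM at 7 days. The MHC class II and dendritic cell list had a median of 0.39, with 8 of 10 members positive, 1 higher and 1 lower, and with 5 higher and 0 lower without replicate 1 at 1 day. H2-Eb1, a class II chain, averaged 33.9 ± 17.7 FPKM at 1 day and 55.9 ± 16.7 FPKM at 7 days and the invariant chain Cd74 averaged 115 ± 50.6 FPKM at 1 day and 165 ± 42.5 FPKM at 7 days, both with overlap. None of the 46 interferon response genes was counted in either direction, and their median was -0.04.

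**Figure D2:**
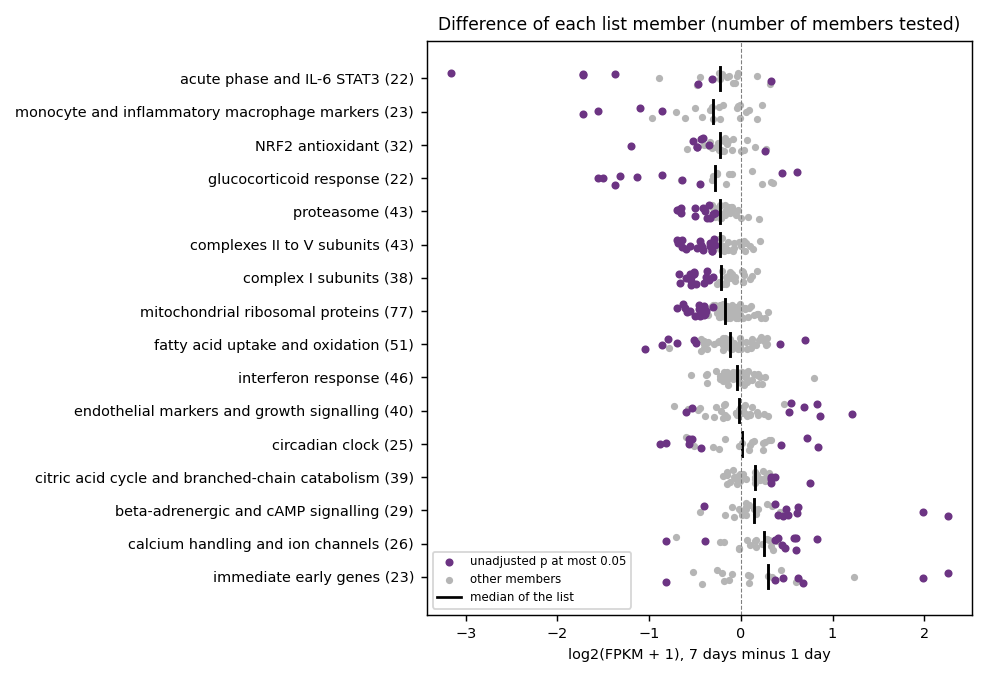
Difference in log2(FPKM + 1), 7 days minus 1 day, of every tested member of 16 gene lists, with the number of members in brackets; purple points have an unadjusted p of at most 0.05 and black bars are list medians. The respiratory chain, mitochondrial ribosome and proteasome members sit in narrow bands mostly left of 0, and the ion channel and immediate early members mostly right of it.

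The list with the most uniform sign was the proteasome, whose subunits degrade ubiquitin-tagged proteins. Of its 43 members, 41 were lower at 7 days in the mean, 13 had an unadjusted p of at most 0.05, all of these lower, and 10 did not overlap, with a median of -0.23, beside 6.78% of all genes lower and 3.77% lower without overlap. Psma5, a subunit of the core ring, measured 45.6, 43.6, 45.7 and 56.1 FPKM at 1 day and 31.8, 27.1, 27.3 and 30.5 FPKM at 7 days, with a difference of -0.69 ± 0.12 (adjusted p = 0.106). Psma3 and Psma6 had differences of -0.66 and -0.69. With the gene length trend removed the counts were 13 lower and 0 higher with a median of -0.22, and with any 1 library left out 10 to 15 members were lower.

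Nuclear genes of the respiratory chain had mostly negative differences of the same small size. Of 38 complex I subunits, 15 were lower and 0 higher, 11 without overlap, with a median of -0.22, to be read beside the same shares of all genes, 6.78% and 3.77%. Ndufb9 measured 416, 333, 378 and 408 FPKM at 1 day and 259.7, 263, 262 and 262 FPKM at 7 days, and the 7 day libraries had an SD of 1.54 FPKM. The difference was -0.54 ± 0.10 (SE) on the log2 scale, with an adjusted p of 0.115 (limma). Ndufa4 averaged 963 ± 164 FPKM at 1 day and 597 ± 29.8 FPKM at 7 days and Ndufs4 averaged 116 ± 15.3 FPKM at 1 day and 78.3 ± 2.56 FPKM at 7 days. Of 43 subunits of complexes II to V, 17 were lower and 0 higher, 15 without overlap, with a median of -0.23. Uqcr10, of complex III, measured 999, 874, 951 and 1059 FPKM at 1 day and 635, 660.4, 605 and 665 FPKM at 7 days, with a difference of -0.59 ± 0.10 (adjusted p = 0.115). Cox7b and Cox4i1, of complex IV, had differences of -0.70 and -0.45. Of 77 mitochondrial ribosomal proteins, 19 were lower and 0 higher, 13 without overlap, with a median of -0.17. Mrps17 averaged 11.7 ± 0.474 FPKM at 1 day and 6.9 ± 1.08 FPKM at 7 days and Mrpl41 averaged 70.9 ± 9.15 FPKM at 1 day and 46.7 ± 5.71 FPKM at 7 days, neither with overlap.

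These subunits are short genes, with a median length of 1532 bases for complex I and 1756 bases for complexes II to V beside 4044 bases over all genes tested, and short genes were lower at 7 days in general. With the length trend removed, 12 complex I subunits, 16 of complexes II to V and 19 mitochondrial ribosomal proteins were lower, none was higher, and the medians were -0.19, -0.17 and -0.13. With quantile normalization 12 complex I subunits were lower and 1 higher, 11 of complexes II to V were lower and 3 higher, and the medians were -0.13 and -0.084. The 13 protein genes of the mitochondrial genome had a median of 0.04, and -0.07 with quantile normalization, with 1 higher and 1 lower. Of 39 citric acid cycle and branched-chain genes, whose median length is near that of all genes, 24 were positive and 15 negative, and the median was 0.15. Of these 39 genes, 5 were higher and 0 lower, beside 6.1% and 6.78% of all genes. Quantile normalization gave 10 higher. With 1 library left out 2 to 9 were higher, with 9 without replicate 4 at 1 day or replicate 1 at 7 days and 2 without replicate 3 or replicate 4 at 7 days, and the median ran from 0.04 to 0.18.

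Genes of glucose and fat use differed member by member. Slc2a4, the insulin-responsive glucose transporter GLUT4, measured 51.4, 55.2, 48.2 and 50.8 FPKM at 1 day and 66.9, 79.6, 86.1 and 85.2 FPKM at 7 days, with a difference of 0.61 ± 0.11 (adjusted p = 0.115). Hk2, hexokinase 2, measured 22.8, 23.8, 17.9 and 13.8 FPKM at 1 day and 31, 33.4, 38.3 and 40 FPKM at 7 days, with a difference of 0.85 ± 0.17 (adjusted p = 0.125). Neither gene overlapped, and in both the lowest 7 day library was replicate 1. Of 44 hypoxia and glycolysis genes, 6 were higher and 0 lower, beside 6.1% and 6.78% of all genes, with a median of 0.02. With quantile normalization 11 were higher and the median was 0.17, and with 1 library left out 4 to 8 were higher. Ppara, the receptor that drives fatty acid oxidation genes, averaged 3.95 ± 0.579 FPKM at 1 day and 7.09 ± 1.34 FPKM at 7 days. Acot13, a mitochondrial thioesterase, averaged 565 ± 118 FPKM at 1 day and 320.1 ± 30.6 FPKM at 7 days, and Plin2, which coats lipid droplets, averaged 18.8 ± 1.46 FPKM at 1 day and 13 ± 1.58 FPKM at 7 days. Of 51 genes of fatty acid uptake and oxidation, 2 were higher and 6 lower, beside 6.1% and 6.78% of all genes. Their median was -0.12. With 1 library left out 3 to 13 were lower and 1 to 6 higher, with 13 lower without replicate 2 at 1 day, and without replicate 4 at 1 day 6 were higher, 3 lower and the median was 0.04. The same refits counted 687 to 964 of all genes as lower and 606 to 864 as higher.

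Contractile and electrical genes took both signs. Of 20 ventricular cardiomyocyte genes, 3 were lower and 0 higher, with a median of -0.03, while with quantile normalization 2 were lower and 5 higher, with a median of 0.09. Csrp3, the muscle LIM protein of the Z-disc, measured 593, 642, 660.2 and 701 FPKM at 1 day and 399, 460.3, 405 and 429 FPKM at 7 days, with a difference of -0.62 ± 0.10 (adjusted p = 0.106). Myl2, the ventricular light chain, averaged 3586 ± 454 FPKM at 1 day and 2814 ± 229 FPKM at 7 days without overlap, and Myh6, the main adult myosin, averaged 1224 ± 224 FPKM at 1 day and 1449 ± 204 FPKM at 7 days with overlap. Of 26 calcium handling and ion channel genes, 8 were higher and 2 lower at 7 days, beside 6.1% and 6.78% of all genes. The median was 0.26, and 7 to 10 were higher with any 1 library left out. With the length trend removed 8 were higher and 1 lower, with a median of 0.21. Kcnip2, a subunit of the transient outward potassium channel, measured 25.2, 22.8, 15.2 and 28 FPKM at 1 day and 31.9, 45.1, 45 and 41.1 FPKM at 7 days. Replicate 3 was the lowest at 1 day and replicate 1 the lowest at 7 days, and the groups did not overlap. The difference was 0.83 ± 0.19 (SE) on the log2 scale, with an adjusted p of 0.147 (limma). Gja1, connexin 43, averaged 19.9 ± 5.17 FPKM at 1 day and 30.1 ± 3.45 FPKM at 7 days, Atp2a2, the calcium pump SERCA2, averaged 1070.1 ± 124 FPKM at 1 day and 1421 ± 161 FPKM at 7 days, and Ryr2, the calcium release channel, averaged 25.6 ± 1.6 FPKM at 1 day and 32.9 ± 7.26 FPKM at 7 days, the last with overlap.

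In the stress and fetal programme list, 2 of 20 members were higher and 3 lower, beside 6.1% and 6.78% of all genes. The median was -0.0045 and ran from -0.27 to 0.19 with 1 library left out. Fhl1, a LIM protein of stretch sensing, measured 63.7, 119, 124 and 55.5 FPKM at 1 day and 44.8, 40.9, 43.2 and 43.9 FPKM at 7 days. The 1 day libraries were split, with replicates 2 and 3 well above replicates 1 and 4, while the 7 day libraries had an SD of 1.66 FPKM. Myh7, the slow fetal myosin, averaged 14.7 ± 4.13 FPKM at 1 day and 7.93 ± 3.24 FPKM at 7 days, and Ankrd1, a stretch-responsive nuclear protein, averaged 214 ± 85.7 FPKM at 1 day and 112 ± 41.5 FPKM at 7 days, both with overlap. Nppb, brain natriuretic peptide, measured 901, 809, 247 and 430.4 FPKM at 1 day and 429, 395, 346 and 376 FPKM at 7 days, and Nppa, atrial natriuretic peptide, measured 29.4, 78.9, 33.1 and 27.5 FPKM at 1 day and 77.4, 23.1, 18.3 and 41.2 FPKM at 7 days. Both overlapped, and Nppb ranged more widely at 1 day than at 7 days. Atrial markers varied between libraries within each group. Myl7, the atrial light chain, was 0.461, 445, 89.6 and 14.1 FPKM in the 4 libraries at 1 day and 24.7, 5.69, 99 and 119.5 FPKM in those at 7 days, and their part in the Nppa values was not tested.

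Of 29 genes of beta-adrenergic and cAMP signalling, 9 were higher and 1 lower at 7 days, beside 6.1% and 6.78% of all genes. The median was 0.14, and 5 to 10 were higher with any 1 library left out, with 5 without replicate 4 at 7 days. With the length trend removed 7 were higher and the median was 0.07. Adcy5, the main cardiac adenylyl cyclase, measured 7.9, 7.4, 5.23 and 7.81 FPKM at 1 day and 10.1, 13, 10.7 and 11.8 FPKM at 7 days, with a difference of 0.63 ± 0.15 (adjusted p = 0.149). The values of the receptors Adrb1 and Adra1a overlapped between the groups. Adrb1, the main cardiac beta receptor, measured 9.05, 2.69, 2.64 and 2.97 FPKM at 1 day and 4.44, 5.56, 5.97 and 6.12 FPKM at 7 days, with the highest value of all 8 libraries in replicate 1 at 1 day. Adra1a, an alpha1 receptor of cardiomyocytes, averaged 1.02 ± 0.38 FPKM at 1 day and 1.75 ± 0.332 FPKM at 7 days.

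Of 23 immediate early genes, 6 were higher and 1 lower, beside 6.1% and 6.78% of all genes, with a median of 0.30. Nr4a1 and Nr4a3 are in this list and in the cAMP list. Jund, a member of the AP-1 factors, averaged 24.5 ± 3.98 FPKM at 1 day and 38.3 ± 6.04 FPKM at 7 days and Ier3, a stress-induced survival gene, averaged 24.7 ± 5.09 FPKM at 1 day and 13.4 ± 1.38 FPKM at 7 days, neither with overlap and in opposite directions. Egr1, a zinc finger factor, measured 52.7, 2.95, 2.13 and 2.3 FPKM at 1 day and 8.41, 3.48, 4.46 and 4.78 FPKM at 7 days. Fos, a partner of Jun in AP-1, measured 20.5, 3.54, 1.19 and 1.01 FPKM at 1 day and 3.52, 5.16, 2.13 and 5.37 FPKM at 7 days. For both, replicate 1 at 1 day was above every other library of the comparison, and the remaining 3 libraries at 1 day lay at 3.54 FPKM or below. Without that library, which these values singled out, 14 of the 23 were higher at 7 days and 1 lower, with a median of 0.58, beside 864 and 948 of all 13238 genes. With any other library left out 5 or 6 were higher.

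The same library stood apart in genes that glucocorticoids induce. Fkbp5, a chaperone of the glucocorticoid receptor and among its most direct targets, measured 1.07, 4.3, 12.4 and 11.4 FPKM at 1 day and 1.28, 2.2, 1.92 and 1.21 FPKM at 7 days. Zbtb16, a transcription factor induced by glucocorticoids, measured 1.79, 12.5, 15 and 14.6 FPKM at 1 day and 1.76, 3.06, 2.22 and 3.03 FPKM at 7 days. In both genes replicate 1 at 1 day lay in or below the 7 day range while the other 3 libraries at 1 day lay above it. With all 8 libraries the differences were -1.32 and -1.503, with adjusted p-values of 0.325 and 0.253. Without replicate 1 at 1 day they were -1.87 and -2.11, again with no p because these values singled the library out. Of the 22 glucocorticoid response genes, 8 were lower and 2 higher at 7 days with all libraries, beside 6.78% and 6.1% of all genes. Their median was -0.29. Without replicate 1 at 1 day 10 were lower and 2 higher, with a median of -0.41. The count of lower members was 4 without replicate 3 or without replicate 4 at 1 day and 5 without replicate 1 or without replicate 4 at 7 days, and the median ran from -0.48 to -0.14 with any 1 library left out. Timp4, a cardiac metalloprotease inhibitor, measured 8.51, 13.9, 31.9 and 35.3 FPKM at 1 day and 6.37, 10.2, 7.46 and 8.18 FPKM at 7 days and was likewise highest in replicates 3 and 4. Nr3c1, the receptor gene itself, averaged 9.32 ± 1.02 FPKM at 1 day and 13 ± 0.82 FPKM at 7 days, with no overlap.

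**Figure D3:**
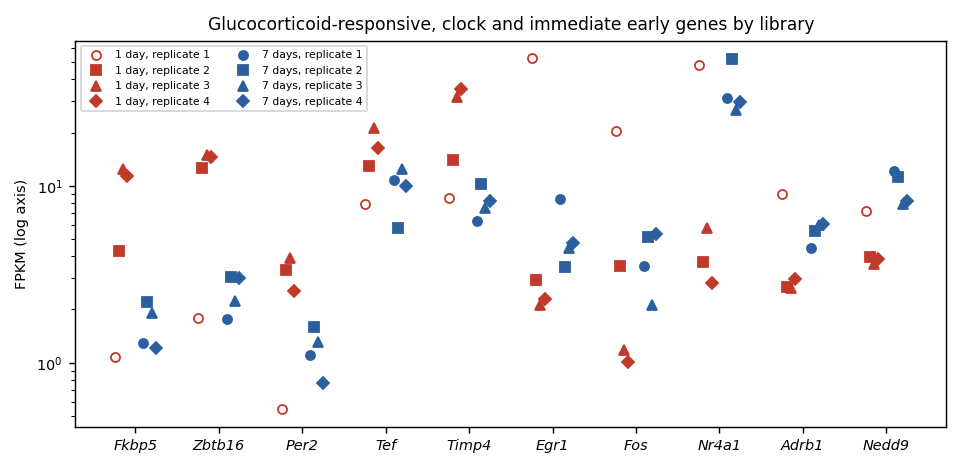
FPKM on a log axis of 10 genes in the 4 libraries at 1 day (red) and the 4 at 7 days (blue), with replicate 1 at 1 day as an open circle. For Fkbp5, Zbtb16 and Per2 the open circle lies in or below the 7 day range, and for Egr1, Fos and Adrb1 it is the highest of all 8 points.

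Clock genes took both signs. Of 25 members, 3 were higher and 6 lower at 7 days, beside 6.1% and 6.78% of all genes. The median was 0.01, and -0.02 when scaled by fragments. Without replicate 3 at 1 day or without replicate 1 at 7 days 3 were lower. Arntl, which encodes the activator BMAL1, measured 1.98, 1.27, 2.02 and 2.44 FPKM at 1 day and 4.24, 4.01, 3.09 and 3.9 FPKM at 7 days, with a difference of 0.73 ± 0.16 (adjusted p = 0.138). Nfil3, which represses D-box genes, averaged 5.29 ± 1.64 FPKM at 1 day and 10.8 ± 5.02 FPKM at 7 days with overlap. On the other side, Nr1d1, which encodes the repressor REV-ERB alpha, measured 24, 24.2, 21 and 23.1 FPKM at 1 day and 18.2, 11.1, 19.9 and 14.6 FPKM at 7 days. Its lowest 1 day library lay above its highest 7 day library. Dbp, a D-box activator, measured 8, 9.73, 12.7 and 11.7 FPKM at 1 day and 4.63, 2.75, 9.02 and 5.94 FPKM at 7 days, with overlap in 1 pair of values. Nr1d2, Per3, Ciart, Per2 and Tef had differences of -0.43, -0.57, -0.82, -0.60 and -0.51. The labels give the day and not the hour of collection, and the part of the hour was not tested.

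Ciart, a repressor of BMAL1 and CLOCK, is shown for the E-boxes in the stretch before its start (chr3:95882229-95882478, minus strand, RefSeq, GRCm38.p6). It was picked with these copies known, and the E-boxes of the other clock genes are not given. Capitals mark CACGTG, the E-box that BMAL1 and CLOCK bind, which reads the same on both strands.
Ciart: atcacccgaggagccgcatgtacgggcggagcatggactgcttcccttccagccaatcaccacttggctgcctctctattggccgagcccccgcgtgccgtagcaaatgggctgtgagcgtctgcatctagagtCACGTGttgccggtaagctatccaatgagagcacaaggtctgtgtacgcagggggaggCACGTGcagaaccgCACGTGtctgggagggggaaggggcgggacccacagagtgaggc
It held 3 copies, where 6.02% of promoters held at least 1 and 0.0609% held 3 or more. Ciart itself measured 1.02, 1.37, 4.22 and 2.18 FPKM at 1 day and 0.229, 0.756, 1.36 and 0.614 FPKM at 7 days, lower on average at 7 days with 1 value out of order between the groups.

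Vascular and stromal genes took both signs. Of 40 endothelial genes, 6 were higher and 2 lower at 7 days, with a median of -0.02, and 0.02 with quantile normalization, beside 6.1% and 6.78% of all genes. With 1 library left out 5 to 7 were higher and 0 to 5 lower. Beside Apln, its receptor Aplnr averaged 6.21 ± 2.41 FPKM at 1 day and 11.8 ± 2.94 FPKM at 7 days, Kdr, the main VEGF receptor, averaged 14.1 ± 5.8 FPKM at 1 day and 24.7 ± 3.55 FPKM at 7 days, and Prox1, a lymphatic endothelial factor that cardiomyocytes also express, averaged 4.32 ± 0.941 FPKM at 1 day and 7.49 ± 0.806 FPKM at 7 days. Pecam1, present on endothelium in general, averaged 54.3 ± 9.4 FPKM at 1 day and 52.1 ± 6.81 FPKM at 7 days. Of 21 smooth muscle and pericyte genes, 2 were higher and 0 lower, with a median of 0.08, and with the length trend removed 3 were higher and the median was 0.03. These were Abcc9, a potassium channel subunit, which averaged 17.7 ± 2.68 FPKM at 1 day and 28.6 ± 2.87 FPKM at 7 days, and Myh11, smooth muscle myosin, which averaged 2.2 ± 1.01 FPKM at 1 day and 4.15 ± 0.448 FPKM at 7 days, both without overlap. Of 38 fibroblast and collagen genes, 2 were higher and 1 lower, shares at or below those of all genes, with a median of 0.05, and 1 to 5 were higher and 0 to 5 lower with 1 library left out. Col1a1 averaged 24.6 ± 10.2 FPKM at 1 day and 26.1 ± 11.6 FPKM at 7 days. Upk3b, a marker of the epicardial surface, averaged 7.7 ± 3.53 FPKM at 1 day and 22 ± 14.3 FPKM at 7 days. Wt1, another, averaged 1 ± 0.55 FPKM at 1 day and 2.56 ± 1.03 FPKM at 7 days. Their part in other differences was not tested.

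The libraries at 0.5 and 3 days place these values in time and were not tested. Serpina3n ran from 8.84 to 115 FPKM at 0.5 days, 26.8 to 114 FPKM at 1 day, 1.3 to 214 FPKM at 3 days and 2.25 to 7.05 FPKM at 7 days. Mt1 ran from 176 to 822 FPKM at 0.5 days, 229 to 589 FPKM at 1 day, 87.5 to 423 FPKM at 3 days and 80.9 to 146 FPKM at 7 days. Fkbp5 ran from 2.05 to 18.5 FPKM at 0.5 days, 1.07 to 12.4 FPKM at 1 day, 1.78 to 10 FPKM at 3 days and 1.21 to 2.2 FPKM at 7 days. At 3 days replicate 4 alone held the high values of all 3 genes, and at 7 days each gene spanned its narrowest range. Nr4a3 ran from 1.51 to 11.1 FPKM at 0.5 days, 0.512 to 2.42 FPKM at 1 day, 0.252 to 6.01 FPKM at 3 days and 7.5 to 16.5 FPKM at 7 days, and all its 1 day libraries lay below 3 of the 4 at 0.5 days. Ndufb9 ran from 358 to 393 FPKM at 0.5 days, 333 to 416 FPKM at 1 day, 95.5 to 331 FPKM at 3 days and 259.7 to 263 FPKM at 7 days, with the lowest value in replicate 3 at 3 days, a library that stood apart from the series with 9.36% of fragments on mitochondrial transcripts and with Lgals3 at 164 FPKM. Without it Ndufb9 was 273 to 331 FPKM at 3 days. The study left out a poor-quality 3 day Adr sample from its own tests, and the sources used here do not say whether this library is that one. Hk2 ran from 13 to 30.5 FPKM at 0.5 days, 13.8 to 23.8 FPKM at 1 day, 10.7 to 34.5 FPKM at 3 days and 31 to 40 FPKM at 7 days.

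**Figure D4:**
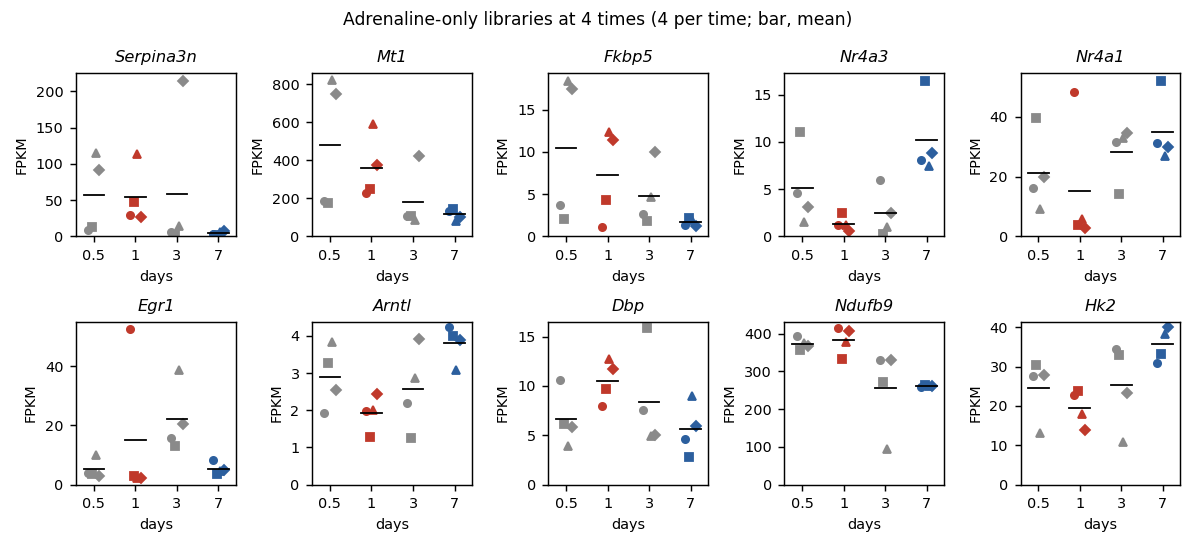
FPKM of 10 genes in the adrenaline-only libraries at 4 times (0.5, 1, 3, 7 days), with 4 libraries a time, with 1 day in red, 7 days in blue, other times in grey and means as black lines. Serpina3n, Mt1 and Fkbp5 span their narrowest ranges at 7 days, and Egr1 and Nr4a1 show the single high library at 1 day.

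The Arrest arm, with 4 libraries a time and none shared with the Adr arm, was fitted with the Adr libraries to ask whether the difference between 7 days and 1 day was of another size after arrest. No gene differed between the arms at an adjusted p of at most 0.05 (limma, smallest 0.541), and 796 genes (6.01%) did without adjustment. In that fit the Arrest arm had 927 genes called (7%) and the Adr arm 108 (0.816%). These counts do not by themselves show a difference between the arms, and the direct test called none. Across the 13238 genes the differences of the arms had a Pearson r of 0.507 and a Spearman rho of 0.489, across genes and as a description. The correlation with gene length lay apart between the times in the Arrest arm as well. At 1 day it was -0.104, -0.124, -0.225 and -0.150 in the 4 Arrest libraries. At 7 days it was 0.046, 0.135, 0.069 and 0.287. The part of this shared property in the likeness of the arms was not tested.

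The 5 genes with the smallest unadjusted p of that difference between arms are given with both arms side by side. Ndufs6b, annotated as a processed pseudogene, could share reads with its near copy Ndufs6 and is uncertain for that reason. Ndufs6b had a difference of 0.33 in the Adr arm and -1.23 in the Arrest arm. Chuk, the kinase IKK alpha, had -0.53 and 0.29. Aasdh, an acyl-CoA synthetase family member, had -0.42 and 0.42. Lrrc15, a matrix-associated membrane protein, had 0.48 and 1.32, the same sign in both, while the other 4 took opposite signs. Angptl6, an angiopoietin-like secreted protein, had -0.52 and 0.87. Their adjusted p-values for the difference between arms ran from 0.541 to 0.631 (limma).

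By list, 25 of the 31 lists with 15 or more tested genes had medians on the same side of 0 in both arms. The acute phase list had a median of -0.23 in the Adr arm and -0.55 in the Arrest arm, the glucocorticoid list -0.29 and -1.001, and the NRF2 list -0.22 and -0.50. Complex I had -0.22 and -0.48, and the proteasome -0.23 and -0.39. The medians of both arms given here are without the gene length trend removed, and its part in their shared sign was not tested. Of the 6 lists on opposite sides, the immediate early list had 0.30 and -0.71 and the interferon list -0.04 and 0.39. The clock list had 0.01 and -0.17. Egr1 measured 47.4, 47.4, 52.1 and 2.84 FPKM and Fos 43.7, 36.7, 37.9 and 1.55 FPKM in the Arrest libraries at 1 day. The description numbers of these libraries were 73, 70, 72 and 95, and that of Adr replicate 1 at 1 day was 71. The part of these numbers in the list medians was not tested. In the test of the difference between arms, 6.01% of all genes passed 0.05 without adjustment. By list, 8 of the 22 acute phase genes, 5 of the 23 immediate early genes, 9 of the 46 interferon genes and 6 of the 32 NRF2 genes did. So did 5 of the 25 clock genes and 4 of the 20 stress and fetal programme genes. Of the 26 calcium handling and ion channel genes and the 38 fibroblast and collagen genes, 0 did.

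**Figure D5:**
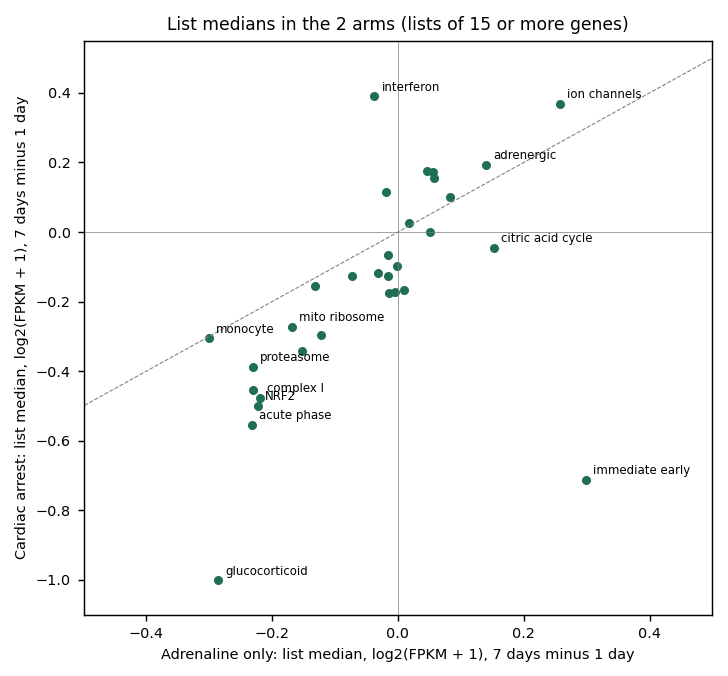
Median difference in log2(FPKM + 1), 7 days minus 1 day, of 31 gene lists with 15 or more tested genes, in the adrenaline-only arm (horizontal) and the cardiac arrest arm (vertical), with the dashed line at equal values. Most lists lie in the lower left or upper right, the glucocorticoid list lies far below the line, and the immediate early list lies in the lower right.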

How the data were processed

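Left ventricular RNA was sequenced as paired reads, and the authors aligned them with HISAT2, tested genes with DESeq2 and deposited 1 table of FPKM per gene for 37 libraries, in which the build and strand setting are not given in the sources used here. Every per-sample column was mapped by name (0 unused), and the authors' values were not rescaled. From the deposited FPKM, a gene was kept when 4 or more of the 8 libraries reached 0.5 FPKM, and log2(FPKM + 1) was tested with limma 3.58.1 (R 4.3.3, trend, two-sided, Benjamini-Hochberg adjustment over 13238 genes, threshold 0.05). Fold changes on this scale understate those of low genes. The FPKM steps gave whole fragments within 0.01 for 100% of values, which set the depths above and entered voom as an alternative. Values after ± are SDs over 4 libraries beside FPKM means and SEs beside log2 differences. Genes were named by size (unadjusted p at most 0.05, at least 2 FPKM in 1 group, no overlap, the 12 most extreme each way), by membership in 41 lists and by the 5 smallest p-values of the difference between arms. Gene IDs were read through the table's own symbols, and 77 symbols are shared by several IDs. The members and lists were chosen with earlier results of these data known. The script was tested on simulated data. The alternatives covered the pseudocount, filter, scaling, covariates, libraries sharing the spread, gene length trend and each library left out. Genes that overlap or share sequence with a copy are uncertain.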

Additional observations from a re-analysis of the deposited data

Results flagged for a closer look

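In 12 of 202 sets of 4 libraries tested, the highest or lowest library stood apart from the other 3 by more than Dixon's critical value for 4 samples, which chance gives in about 1 of 20 sets. At 1 day, 4 of these were in replicate 1, which was the highest for Egr1 (52.7 FPKM), Adrb1 (9.05 FPKM) and Nedd9 (7.24 FPKM) and the lowest for Zbtb16 (1.79 FPKM). Replicate 3 at 1 day was the lowest for Atp2a2 (886 FPKM) and Adcy5 (5.23 FPKM), and replicate 2 at 1 day was the lowest for Psma3 (21.9 FPKM). Replicate 4 at 1 day was the deepest library, with 25.9 M fragments, and had the most genes above 0, 21356. At 7 days, replicate 3 was the lowest for Mir133a-2, listed at 0 FPKM, while replicate 4 was the highest for Mmp3 (6.98 FPKM) and the lowest for Socs3 (0.961 FPKM).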

How the results depend on the processing

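The count of 0 genes called between 1 day and 7 days was 1 with a pseudocount of 0.1, 1 with sex as a covariate (Serpina3n), 12 with all 37 libraries, 17 with voom, 88 with 36 libraries, without replicate 3 at 3 days, and 108 with the 16 libraries of both arms, both chosen after seeing the data. With 1 library left out it ran from 0 to 5, with 5 without replicate 1 at 1 day and 2 without replicate 2 at 1 day. The 5 include Zbtb16 and Nr4a1, whose values singled out replicate 1 at 1 day, so that count is no support. The count was 0 under the other alternatives run, except a replicate block, which gave 1 gene (Nr4a3). The labels do not say that the replicate numbers pair the samples. Correlations of same-numbered libraries ran from -0.080 to 0.079, which is too few values to decide whether a pairing exists. At an unadjusted p of at most 0.05, quantile normalization counted 938 higher and 791 lower genes, and scaling by fragments 650 and 1041. The gap between groups on the first component was 5.47 pooled SDs and 3.31 with genes centred only. The count of 0 genes differing between the arms was 2 without replicate 4 of Arrest at 1 day and ran from 0 to 2 with 1 library left out.

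Some genes with differences near 0 changed sign. Egr1 was 1.26 with the description number as covariate and 0.076 with voom, and 0.81 without replicate 1 at 1 day. With the description number Pecam1 was 0.0066 and Nppa 0.048. With 1 library left out, Egr1 ran from -0.56 to 0.81, Fos from -0.30 to 0.84, Pecam1 from -0.10 to 0.059, Nppa from -0.54 to 0.19 and Col1a1 from -0.17 to 0.30. The difference in fragments ran from -3.67 to 0.439 M and that in genes above 0 from -1415 to 163, both positive without replicate 4 at 1 day. The gene length difference ran from 0.174 to 0.240 with 1 library left out. Its unadjusted exact permutation p stayed at or under 0.05 whichever 1 day library was left out. It was above 0.05 whichever 7 day library was left out. The highest value at 1 day was 0.005 and the lowest at 7 days 0.023, so the groups did not overlap in any of these refits. An exact p of 3 against 4 libraries moves in coarse steps, so no conclusion is drawn from its crossing of 0.05. The causes were not tested. Depth limits the genes near 0.5 FPKM.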
